A study of Mus musculus with 15 samples.

Results

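The liver X receptor (LXR) pathway and the genes of cholesterol efflux were followed as 10 named genes: Nr1h2, Nr1h3, Abca1, Abcg1, Apoe, Mylip, Pltp, Lpcat3, Srebf1 and Scd2. They were listed by name for their roles in the pathway, with earlier results of these data known and no threshold on values, from 51763 genes in the count table, and all 10 were among the 16919 genes with enough counts to be tested.

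LXRα (Nr1h3) and LXRβ (Nr1h2) are nuclear receptors that bind DNA as heterodimers with the retinoid X receptor and are activated by oxidised cholesterol and by the sterol precursor desmosterol. When cholesterol accumulates in a macrophage, active LXR raises genes that export it (Abca1, Abcg1, Apoe), that limit further uptake (Mylip), and that change fatty acids and membrane phospholipids (Srebf1, Scd2, Lpcat3). Crosstalk between LXR and Toll-like receptor signalling is well known in macrophages and runs in both directions.

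RNA was sequenced from macrophages grown from the bone marrow of wild-type female C57BL/6NTac mice, 8 to 10 weeks old, and exposed for 24 h to 1 of 5 conditions with 3 libraries each: the PBS control, 5 µg/mL of recombinant HMGB1 in its fully reduced (frHMGB1) or disulfide (dsHMGB1) form, LPS alone at 1 µg/mL, or 20 ng/mL of interferon gamma together with LPS (LPS/IFNγ). For the last group the sample labels give the LPS dose as 1 µg/mL in one place and as 100 ng/mL in another. The study's methods give 100 ng/mL. HMGB1 is a nuclear protein that acts as a danger signal outside the cell, and the redox state of its cysteines separates the 2 isoforms. The macrophages of 5 mice were pooled before seeding, so the 3 libraries of a condition are technical replicates of 1 pool, and no p-value here speaks to the variation between mice.

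Total counts ran from 40934540 to 80925478 per library. PBS replicate 3 stood apart: its correlation with the other PBS libraries across genes was 0.939 and 0.934 (Pearson, log2 CPM), against 0.987 to 0.993 for every other pair of replicates, and the members' differences from PBS are given with and without it. All 8 macrophage markers were tested, and their summed level moved with the conditions, at 22000 to 26400 CPM in PBS (counts scaled to a common library total), 27200 to 27500 in frHMGB1, 19500 to 21000 in dsHMGB1, 16000 to 16700 in LPS and 13100 to 13500 in LPS/IFNγ. Dendritic cell markers summed to 4.11 to 5.17 in PBS, 3.37 to 4.4 in frHMGB1, 3.35 to 4.19 in dsHMGB1, 7.81 to 8.62 in LPS and 13.8 to 15 in LPS/IFNγ, and the part of either list in the results was not tested. Over all libraries fibroblast markers summed to 118 to 282, neutrophil markers to 1.97 to 5.47 (Ly6g and Mpo at 0), and lymphocyte, adipocyte, hepatocyte and erythroid markers to at most 0.14. The 8 genes used to check the stimulation, among them Il6, Nos2 and Cxcl9, were all higher than in PBS after dsHMGB1, LPS and LPS/IFNγ, and 1 of 8 (Tnf) after frHMGB1, or 3 of 8 (Tnf, Irf1 and Gbp2) without PBS replicate 3.

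Levels below are counts divided by a size factor per library (normalized counts, given for replicates 1, 2 and 3 in that order, with mean ± SD, n = 3). Differences are log2 ratios ± SE, where 1 unit is a 2-fold difference, and a gene is called higher or lower where its adjusted p from edgeR's quasi-likelihood test, corrected over all genes tested, was below 0.05. The 4 comparisons with PBS share the same 3 PBS libraries, and the comparisons among stimuli share libraries with each other.

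**Figure D1:**
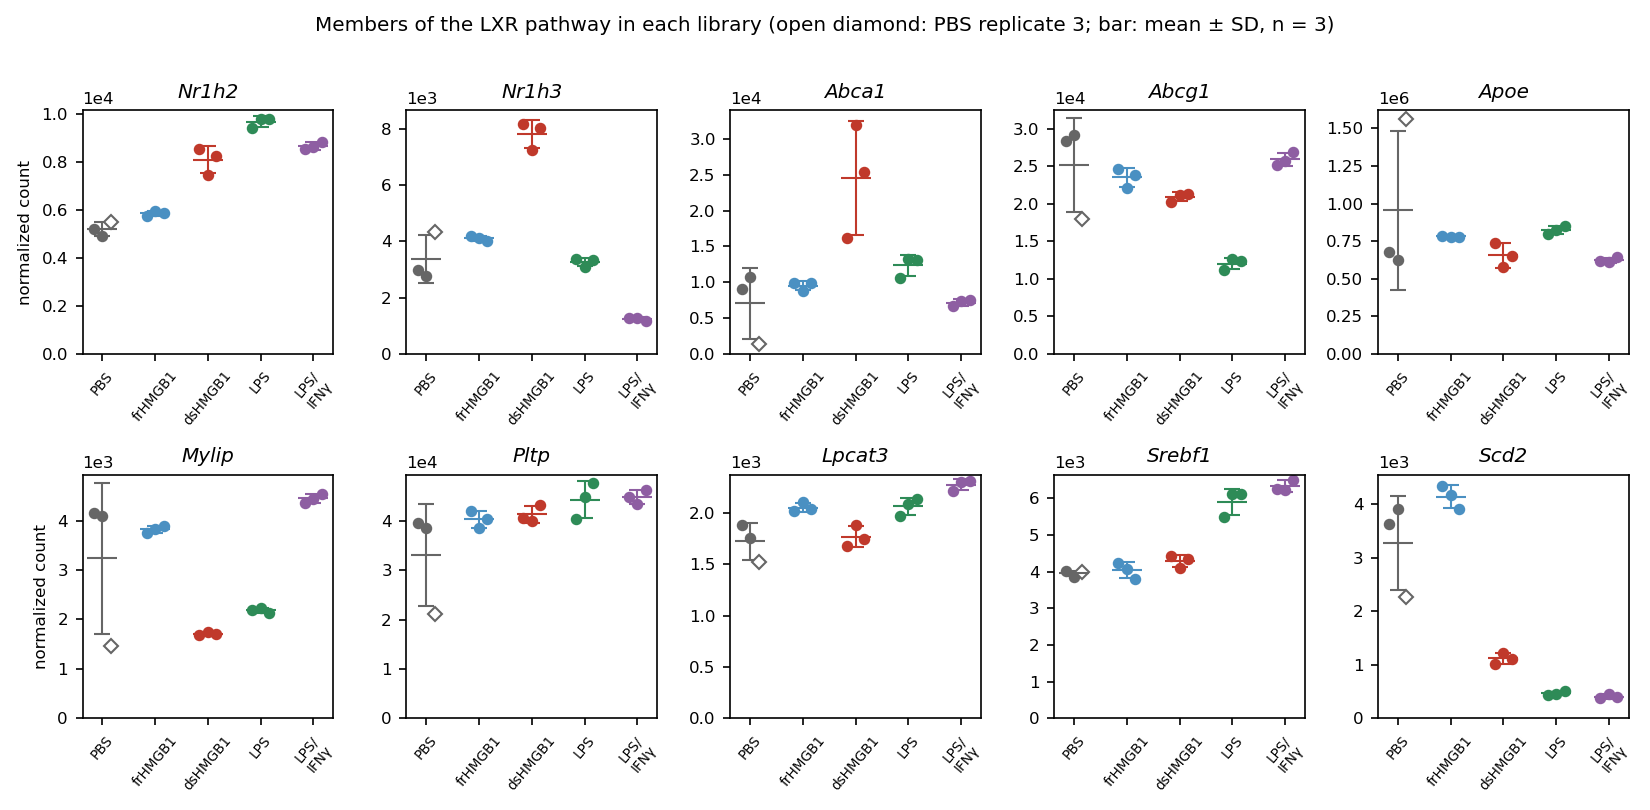
Normalized counts of the 10 genes (vertical axes, each from 0) in every library by condition, with bars at the mean ± SD of 3 libraries and an open diamond for PBS replicate 3. Nr1h3 and Abca1 were highest in dsHMGB1, Abcg1 was lowest in LPS, Scd2 was low in dsHMGB1, LPS and LPS/IFNγ, and the open diamond lies away from the other 2 PBS libraries for Abca1, Apoe, Mylip and Pltp.

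Nr1h3, the gene of LXRα (ENSMUSG00000002108, GRCm38 chromosome 2, 91184061 to 91202834, minus strand), had the widest range of the receptors and was the member that set the 3 inflammatory stimuli furthest apart. It rose with dsHMGB1, was not called with LPS alone, and fell with LPS/IFNγ. Its normalized counts were 8159, 7250 and 8010 in dsHMGB1 (7806 ± 488) and 2966, 2783 and 4342 in PBS (3364 ± 852). In LPS they were 3360, 3096 and 3334 (3263 ± 146), and in LPS/IFNγ 1284, 1272 and 1186 (1247 ± 53.4). Every dsHMGB1 library lay above every library of the other conditions, and every LPS/IFNγ library lay below them. Against PBS, Nr1h3 rose by 1.22 ± 0.12 with dsHMGB1 (adjusted p = 2.42e-06) and fell by 1.45 ± 0.12 with LPS/IFNγ (adjusted p = 2.65e-07), while its difference with LPS was -0.09 ± 0.12 (adjusted p = 0.518). With frHMGB1 the counts were 4196, 4114 and 4015 (4108 ± 90.7), within the range of the PBS libraries, with a difference of 0.32 ± 0.12 (adjusted p = 0.183). That last value depended on PBS replicate 3, since without it the difference was 0.51 ± 0.07 and was called (adjusted p = 3.7e-05). The calls for dsHMGB1 and LPS/IFNγ held in all 15 alternative settings, from 1.12 to 1.48 for dsHMGB1 and from -1.54 to -1.07 for LPS/IFNγ. With PBS replicate 3 left out the difference was 1.41 ± 0.07 for dsHMGB1, 0.13 ± 0.07 for LPS (adjusted p = 0.107) and -1.28 ± 0.07 for LPS/IFNγ. By qPCR on macrophages of separate mice, the study reported Nr1h3 higher with dsHMGB1 than with frHMGB1, by a fairly small fold. The difference between those 2 isoforms here was 0.90 ± 0.12 (adjusted p = 3.89e-05). The authors described the qPCR of the foam cell genes they chose, Nr1h3 among them, as out of step with their RNA sequencing. In bulk RNA, fewer cells of a type and less RNA per cell cannot be told apart.

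Nr1h2, the gene of LXRβ (ENSMUSG00000060601, chromosome 7, 44549616 to 44553951, minus strand), moved less and in 1 direction. It was higher than PBS with dsHMGB1, LPS and LPS/IFNγ, and its levels did not follow those of Nr1h3. Counts were 5222, 4900 and 5493 in PBS (5205 ± 297), 8544, 7459 and 8270 in dsHMGB1 (8091 ± 564), 9414, 9812 and 9814 in LPS (9680 ± 230), with 8549, 8610 and 8843 in LPS/IFNγ (8667 ± 155). The 3 stimulated groups did not overlap with PBS. The differences were 0.63 ± 0.08 for dsHMGB1 (adjusted p = 1.39e-05), 0.84 ± 0.08 for LPS (adjusted p = 5.26e-07) and 0.71 ± 0.08 for LPS/IFNγ (adjusted p = 2.38e-06). PBS replicate 3 was not apart for this gene, and without it they were 0.64, 0.88 and 0.71 (each ± 0.06). With frHMGB1 the counts were 5755 to 5951, above every PBS library, and the difference was 0.19 ± 0.08 (adjusted p = 0.203), or 0.21 ± 0.06 and called without PBS replicate 3 (adjusted p = 0.0255).

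The balance of the receptor transcripts differed between conditions. Per kilobase of merged exons, Nr1h2 stood at 27.2 ± 0.861 CPM in PBS and Nr1h3 at 23.3 ± 4.80. In dsHMGB1 they stood at 42.0 ± 2.80 and 54.1 ± 3.20, and in LPS/IFNγ at 44.5 ± 0.888 and 8.54 ± 0.361. The low Nr1h3 level beside Nr1h2 in LPS/IFNγ did not hang on the length used, since per kilobase of the longest transcript the levels there were 74.7 for Nr1h2 and 10.99 for Nr1h3. In dsHMGB1 it did: by that length Nr1h2 stood at 70.5 and Nr1h3 at 69.6, so which receptor was higher there cannot be said.

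Abca1, the transporter that loads cholesterol and phospholipid onto lipid-poor apolipoprotein A-I (ENSMUSG00000015243, chromosome 4, 53030787 to 53159895, minus strand), reached its highest level with dsHMGB1. Its dsHMGB1 libraries held 16152, 31917 and 25445 normalized counts (24505 ± 7925), all above every library of the other conditions. PBS held 9070, 10723 and 1391 (7061 ± 4979), frHMGB1 9964, 8786 and 9862 (9537 ± 652), LPS 10659, 13305 and 13144 (12369 ± 1483) and LPS/IFNγ 6666, 7396 and 7465 (7176 ± 443). PBS replicate 3 had 1186 raw counts of Abca1 where the other PBS libraries had 14027 and 16998. The SE of Abca1 differences from PBS was 0.50 with this library and 0.18 without it. Abca1 rose by 1.76 ± 0.50 with dsHMGB1 (adjusted p = 0.0124) and by 1.27 ± 0.18 without PBS replicate 3 (adjusted p = 1.12e-05), and the call was lost where dsHMGB1 and PBS were fitted alone (adjusted p = 0.118, over a range from 1.81e-10 to 0.118 in 15 alternatives). For LPS the difference was 0.72 ± 0.50 (adjusted p = 0.228), and without that library 0.26 ± 0.18 (adjusted p = 0.202). For LPS/IFNγ it was -0.03 ± 0.50 (adjusted p = 0.963), and without that library -0.53 ± 0.18 and called (adjusted p = 0.0129). For frHMGB1 it was 0.42 ± 0.50 (adjusted p = 0.737), and without that library -0.06 ± 0.18 (adjusted p = 0.874). The study's own qPCR, on macrophages of separate mice, went the other way for Abca1, which it reported as downregulated by dsHMGB1. Its authors described that qPCR as out of step with their RNA sequencing, so the rise seen here comes from 1 pool only.

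The LXR:RXR heterodimer binds direct repeats of a short hexamer with 4 bases between them. The letters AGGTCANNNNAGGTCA were searched on both strands, with up to 3 mismatches at the 12 fixed positions, in the RefSeq promoter windows of the members (GRCm38.p6, 250 bases before to 50 after a transcript start, 300 bases in all). Of the 10 members 8 had such windows, 13 in all, and Abcg1 and Scd2 had none. A match was found in 1 window of Abca1 and in 1 of the 3 windows of Srebf1, and 6 members had no match. A match of this quality was also present in 21.9% of all 32851 promoter windows, so its presence is a description of these bases and not of binding. The 250 bases before each of these starts (chr4:53159896-53160145 for Abca1 and chr11:60210472-60210721 for Srebf1, both on the minus strand) are shown because these were the members with a match, 5′ to 3′ along the gene, with the match in capitals.
Abca1: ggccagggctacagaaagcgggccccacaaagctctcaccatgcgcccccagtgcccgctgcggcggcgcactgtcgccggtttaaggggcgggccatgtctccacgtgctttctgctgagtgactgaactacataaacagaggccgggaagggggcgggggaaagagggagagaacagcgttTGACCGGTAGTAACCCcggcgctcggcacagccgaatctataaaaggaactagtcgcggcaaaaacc
Srebf1: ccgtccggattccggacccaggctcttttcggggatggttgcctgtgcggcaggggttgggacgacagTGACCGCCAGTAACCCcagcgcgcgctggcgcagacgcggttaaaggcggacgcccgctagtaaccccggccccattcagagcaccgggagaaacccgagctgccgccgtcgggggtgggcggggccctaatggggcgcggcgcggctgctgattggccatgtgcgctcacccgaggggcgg
The matches end 51 bases before the Abca1 start and 166 bases before the Srebf1 start, and on the opposite strand they read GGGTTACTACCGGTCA and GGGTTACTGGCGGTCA. They share 14 of 16 letters, including all 12 fixed positions. The shared letters, GGGTTANNNNCGGTCA, were taken from these matches after they were seen. They occurred in 3 of the 32851 windows (0.00913%). The windows of both matches are counted there by construction, so this share is no measure of how rare the letters are. The Srebf1 start with the match lies inside the gene, and the bases after it were found near the start of no GENCODE transcript of Srebf1. The window at the 5′ end of Srebf1 (60222532 to 60222831) had no match. Counts per gene do not separate transcript starts. By those counts Abca1 and Srebf1 were ordered differently over the conditions, with Abca1 highest in dsHMGB1 and Srebf1 highest in LPS/IFNγ.

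Abcg1, which moves cholesterol towards high density lipoprotein (ENSMUSG00000024030, chromosome 17, 31057675 to 31117988, plus strand), had another pattern from Abca1: it fell with LPS alone. LPS libraries held 11173, 12598 and 12351 normalized counts (12041 ± 761), below every library of the other conditions. PBS held 28402, 29163 and 17946 (25171 ± 6268), dsHMGB1 20217, 21215 and 21291 (20908 ± 599), and LPS/IFNγ 25218, 25694 and 26865 (25926 ± 847). Abcg1 fell by 1.14 ± 0.16 with LPS (adjusted p = 4.05e-05), a call kept in all 15 alternatives from -1.32 to -1. With dsHMGB1 the difference was -0.29 ± 0.16 (adjusted p = 0.159) and with LPS/IFNγ 0.01 ± 0.16 (adjusted p = 0.971). In frHMGB1 the libraries held 24687, 22128 and 23789, and the difference was -0.09 ± 0.16 (adjusted p = 0.831). PBS replicate 3 was low for this gene too, and without it Abcg1 was called lower with frHMGB1 (-0.30 ± 0.06, adjusted p = 0.00206), dsHMGB1 (-0.50 ± 0.06, adjusted p = 1.08e-06), LPS (-1.32 ± 0.06, adjusted p = 7.5e-13) and LPS/IFNγ (-0.22 ± 0.06, adjusted p = 0.00325). For LPS/IFNγ this turned the sign.

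Apoe, the apolipoprotein that macrophages secrete to carry cholesterol away (ENSMUSG00000002985, chromosome 7, 19696109 to 19699188, minus strand), took 0.834% to 2.93% of all counts in a library. Its direction against PBS depended on PBS replicate 3. That library held 1563160 normalized counts, while the other PBS libraries held 678027 and 622966. The other conditions lay between 575833, in dsHMGB1, and 852325, in LPS. With all libraries Apoe was called lower in LPS/IFNγ only (-0.62 ± 0.24, adjusted p = 0.0388). The call was lost without PBS replicate 3 (-0.13 ± 0.07, adjusted p = 0.116) and without LPS/IFNγ replicate 1, 2 or 3 (adjusted p = 0.0828, 0.0878 and 0.073), and it stood in 5 of 15 alternatives. With dsHMGB1 the difference was -0.53 ± 0.24 (adjusted p = 0.0846), called without PBS replicate 1 (-0.70, adjusted p = 0.0293) or 2 (-0.74, adjusted p = 0.0141) and -0.02 ± 0.07 without PBS replicate 3. Without PBS replicate 3, Apoe was higher with frHMGB1 (0.26 ± 0.07, adjusted p = 0.0204) and with LPS (0.28 ± 0.07, adjusted p = 0.00227), where the values with it were -0.25 ± 0.24 for both (adjusted p = 0.661 and 0.372).

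Pltp encodes the phospholipid transfer protein, which remodels lipoproteins (ENSMUSG00000017754, chromosome 2, 164839518 to 164857711, minus strand), and it was the only member called in none of the 8 comparisons. Apart from PBS replicate 3 at 21184 normalized counts, its libraries ran from 38599, in PBS, to 47690, in LPS. Its largest difference was 0.40 ± 0.19, with LPS/IFNγ over PBS (adjusted p = 0.0898), and 0.13 ± 0.06 without PBS replicate 3 (adjusted p = 0.0859). With frHMGB1, dsHMGB1 and LPS it was 0.29, 0.30 and 0.34 (each ± 0.19, adjusted p = 0.509, 0.22 and 0.134), and 0.04, 0.05 and 0.12 without that library (each ± 0.06, adjusted p = 0.752, 0.562 and 0.0932). With PBS replicate 3 kept and another PBS library left out, Pltp was called higher with LPS (0.51 without PBS replicate 1, adjusted p = 0.046) and with LPS/IFNγ (0.56 and 0.54 without PBS replicate 1 or 2, adjusted p = 0.0307 and 0.0402), where DESeq2 also called it (0.44, adjusted p = 0.0485). RLE scaling (0.44, adjusted p = 0.0471), no count filter (0.48, adjusted p = 0.0496) and a transcript length correction (0.61, adjusted p = 0.0161) called it with LPS/IFNγ too. With that correction and PBS replicate 3 left out, it was called with LPS/IFNγ (0.34, adjusted p = 6.06e-05) and LPS (0.20, adjusted p = 0.00697), and not with dsHMGB1 (0.13, adjusted p = 0.0694).

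Mylip encodes a ubiquitin ligase that limits lipoprotein uptake (ENSMUSG00000038175, chromosome 13, 45389742 to 45412022, plus strand). Its lowest levels were in dsHMGB1 and its highest in LPS/IFNγ. The libraries held 1688, 1752 and 1706 normalized counts in dsHMGB1 (1716 ± 33.2), 2201, 2234 and 2124 in LPS (2186 ± 56.0), with 4361, 4447 and 4540 in LPS/IFNγ (4449 ± 89.4). Within each of these conditions the spread was small and the conditions did not overlap. PBS held 4149, 4088 and 1466 (3234 ± 1531), so that PBS replicate 3 lay below every dsHMGB1 library. Mylip fell by 0.94 ± 0.28 with dsHMGB1 (adjusted p = 0.0147). Without PBS replicate 3 the difference was -1.30 ± 0.06 (adjusted p = 5.57e-13), and with that library kept the call was lost without PBS replicate 1 (-0.71, adjusted p = 0.0642) or 2 (-0.73, adjusted p = 0.0591) and where dsHMGB1 and PBS were fitted alone (adjusted p = 0.135). With LPS the difference was -0.65 ± 0.28 (adjusted p = 0.0616), and -0.97 ± 0.06 and called without PBS replicate 3 (adjusted p = 2.71e-11). With LPS/IFNγ it was 0.41 ± 0.28 (adjusted p = 0.218) and 0.04 ± 0.06 without that library (adjusted p = 0.533). With frHMGB1 the counts were 3754 to 3883, and the difference was 0.24 ± 0.28 (adjusted p = 0.736) and -0.11 ± 0.06 without that library (adjusted p = 0.189).

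Scd2, a stearoyl-CoA desaturase that makes monounsaturated fatty acids (ENSMUSG00000025203, chromosome 19, 44293674 to 44306864, plus strand), showed the largest differences from PBS among the members with LPS and LPS/IFNγ. Its libraries held 3637, 3912 and 2269 normalized counts in PBS (3273 ± 880) and 4337, 4168 and 3918 in frHMGB1 (4141 ± 211). They held 1024, 1229 and 1114 in dsHMGB1 (1122 ± 103), 443, 451 and 503 in LPS (466 ± 32.3), with 371, 460 and 391 in LPS/IFNγ (407 ± 46.6). All 9 libraries of the inflammatory stimuli lay below all 6 of PBS and frHMGB1. Scd2 fell with dsHMGB1 (-1.56 ± 0.18, adjusted p = 1.35e-05), with LPS (-2.89 ± 0.19, adjusted p = 2.93e-08) and with LPS/IFNγ (-3.04 ± 0.19, adjusted p = 1.67e-08). These calls held in all 15 alternatives each, with the smallest difference at -1.4, and without PBS replicate 3 they were -1.78 ± 0.09, -3.08 ± 0.10 and -3.28 ± 0.10. With frHMGB1 the difference was 0.35 ± 0.18 (adjusted p = 0.392), and 0.13 ± 0.09 without that library (adjusted p = 0.374).

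Srebf1, the gene of the transcription factor SREBP-1 that drives fatty acid synthesis (ENSMUSG00000020538, chromosome 11, 60199089 to 60222581, minus strand), moved the other way. It rose with LPS and LPS/IFNγ and was not called with dsHMGB1. Counts were 4008, 3869 and 3988 in PBS (3955 ± 74.7), 4418, 4115 and 4356 in dsHMGB1 (4297 ± 160), 5494, 6112 and 6115 in LPS (5907 ± 358), with 6269, 6237 and 6514 in LPS/IFNγ (6340 ± 152). The differences were 0.52 ± 0.08 for LPS (adjusted p = 8.56e-05) and 0.66 ± 0.08 for LPS/IFNγ (adjusted p = 9.17e-06), both called in 15 of 15 alternatives, and 0.11 ± 0.08 for dsHMGB1 (adjusted p = 0.27). In LPS and LPS/IFNγ, then, Scd2 fell while Srebf1 rose. PBS replicate 3 was not apart for this gene, and without it the differences were 0.53, 0.62 and 0.09 (each ± 0.06). With frHMGB1 the counts were 3808 to 4240, and the difference was 0.05 ± 0.08 (adjusted p = 0.82) and 0.03 ± 0.06 without that library (adjusted p = 0.81).

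Lpcat3, which places polyunsaturated fatty acids into phospholipids (ENSMUSG00000004270, chromosome 6, 124663027 to 124704418, plus strand), was called in 1 comparison with PBS. Its libraries ran from 1529, in PBS, to 2319, in LPS/IFNγ. It was called higher in LPS/IFNγ only (0.37 ± 0.11, adjusted p = 0.00761), and 0.25 ± 0.07 without PBS replicate 3 (adjusted p = 0.0031). The difference was 0.19 ± 0.11 for LPS (adjusted p = 0.124), called without PBS replicate 1 (0.28, adjusted p = 0.0443) and by DESeq2 (0.26, adjusted p = 0.0107), and 0.03 ± 0.11 for dsHMGB1 (adjusted p = 0.85). Leaving out PBS replicate 3 gave 0.12 ± 0.07 (adjusted p = 0.117) and -0.07 ± 0.07 (adjusted p = 0.371). With frHMGB1 the difference was 0.27 ± 0.11 (adjusted p = 0.203), and 0.17 ± 0.07 without that library (adjusted p = 0.101).

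**Figure D2:**
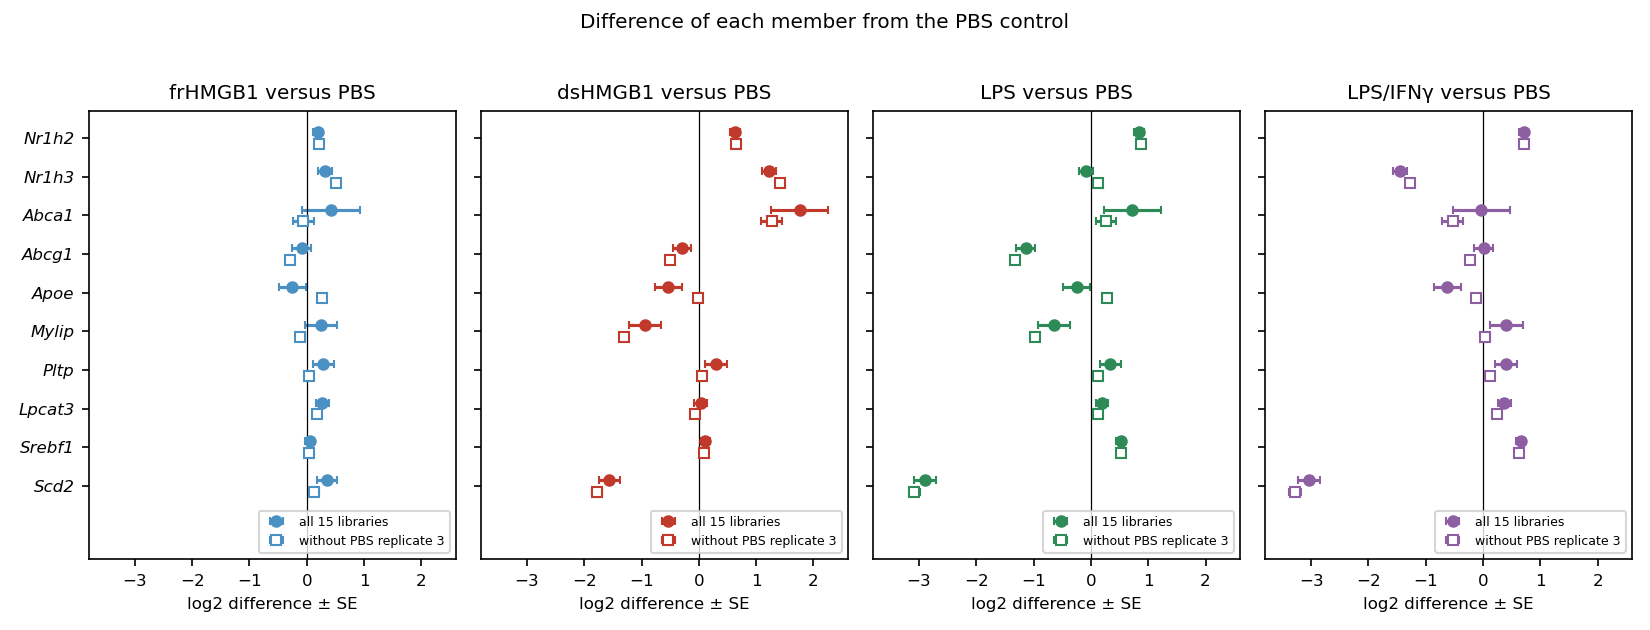
Log2 difference from PBS ± SE (horizontal axes) for the 10 genes (rows) in each condition, with filled circles for the fit with all 15 libraries and open squares for the fit without PBS replicate 3. Nr1h3 lies at 1.22 with dsHMGB1 and at -1.45 with LPS/IFNγ, and for Apoe, among others, the circle and square lie on opposite sides of 0 with frHMGB1 and with LPS.

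Counted over the 10 members, each inflammatory stimulus had members called in both directions. With dsHMGB1, 3 were higher (Nr1h2, Nr1h3, Abca1) and 2 lower (Mylip, Scd2), where 23.3% and 24.2% of all genes tested were higher and lower. With LPS, 2 were higher (Nr1h2, Srebf1) and 2 lower (Abcg1, Scd2), where the shares of all genes were 26.7% and 36.2%. With LPS/IFNγ, 3 were higher (Nr1h2, Lpcat3, Srebf1) and 3 lower (Nr1h3, Apoe, Scd2), where the shares were 29% and 31.2%. The share of members called was thus near the share of all genes with dsHMGB1 and LPS/IFNγ and below it with LPS. With frHMGB1 none was called, where the shares were 1.31% and 5.69%. Nr1h2 and Nr1h3 had an unadjusted p below 0.05 (0.0252 and 0.0217), as did Lpcat3, and DESeq2 called none either.

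The median of the 10 differences was 0.26 with frHMGB1, 0.07 with dsHMGB1, 0.05 with LPS and 0.19 with LPS/IFNγ, beside medians over all genes tested of 0, -0.11, -0.27 and -0.15. Without PBS replicate 3 the members' medians were 0.09, 0.02, 0.12 and -0.04. The counts without that library were 3 higher and 1 lower with frHMGB1 (all genes 8.41% and 9.09%), 3 and 3 with dsHMGB1 (29.8% and 29%), 3 and 3 with LPS (32.9% and 38.3%) and 3 and 4 with LPS/IFNγ (33.3% and 34.4%).

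**Figure D3:**
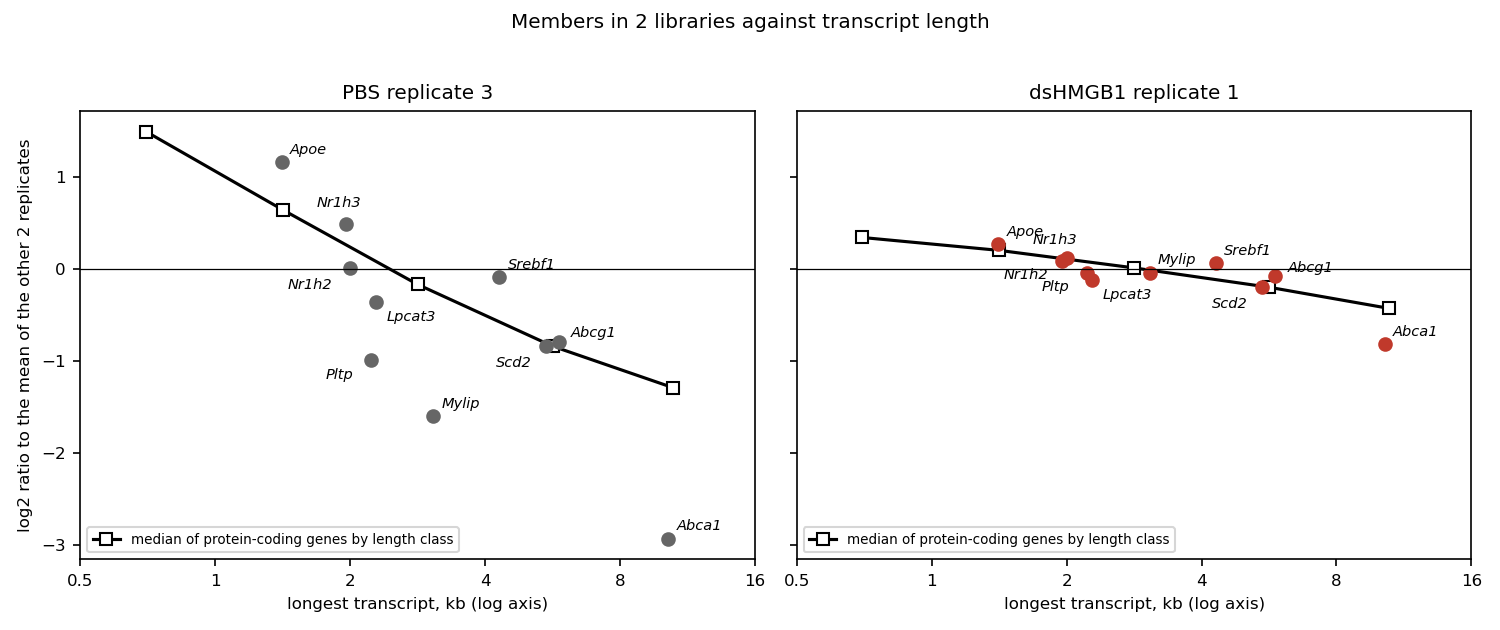
Log2 ratio of each member in 1 library to the mean of the other 2 replicates of its condition (vertical axis) against the length of its longest transcript (horizontal log axis, kb), for PBS replicate 3 and dsHMGB1 replicate 1, with open squares joined by a line for the median of all protein-coding genes tested in 5 length classes. In PBS replicate 3 Apoe, of 1408 bases, lies at 1.16 and Abca1, of 10262 bases, at -2.93.

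The departure of PBS replicate 3 went with transcript length. Over all protein-coding genes tested, the median log2 ratio of this library to the other PBS libraries was 1.49 for transcripts of up to 1 kb (676 genes) and -1.29 for those over 8 kb (719 genes). Among the members, Abca1 (10262 bases) stood at -2.93, Abcg1 (5832) at -0.79, Scd2 (5455) at -0.84, Srebf1 (4299) at -0.09, Mylip (3065) at -1.60, Lpcat3 (2281) at -0.36, Pltp (2226) at -0.99, Nr1h2 (1999) at 0.01, Nr1h3 (1955) at 0.49 and Apoe (1408) at 1.16. Abca1, Mylip, Pltp, Lpcat3 and Apoe lay further from 0 than the class of their length. A smaller trend was present in dsHMGB1 replicate 1, from 0.34 to -0.43, where Abca1 stood at -0.82 and Apoe at 0.27. In dsHMGB1 replicate 2 the trend ran the other way, from -0.26 to 0.33. In the libraries of frHMGB1, LPS and LPS/IFNγ the class medians were between -0.11 and 0.09. The part of transcript length, RNA quality or library preparation in any single member's value was not tested. With a per-library correction for length, added after this trend was seen, Abca1 was 0.73 above PBS with LPS and called (adjusted p = 0.0358), and Apoe with LPS/IFNγ was at -0.10 (adjusted p = 0.408). When PBS replicate 3 was left out as well, frHMGB1 against PBS was not called for Apoe (0.08, adjusted p = 0.29) or Nr1h2 (0.09, adjusted p = 0.221). It was called for Nr1h3 (0.39, adjusted p = 2.07e-05), Abcg1 (-0.19, adjusted p = 0.0234), Mylip (-0.15, adjusted p = 0.0437) and Scd2 (0.22, adjusted p = 0.0271).

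**Figure D4:**
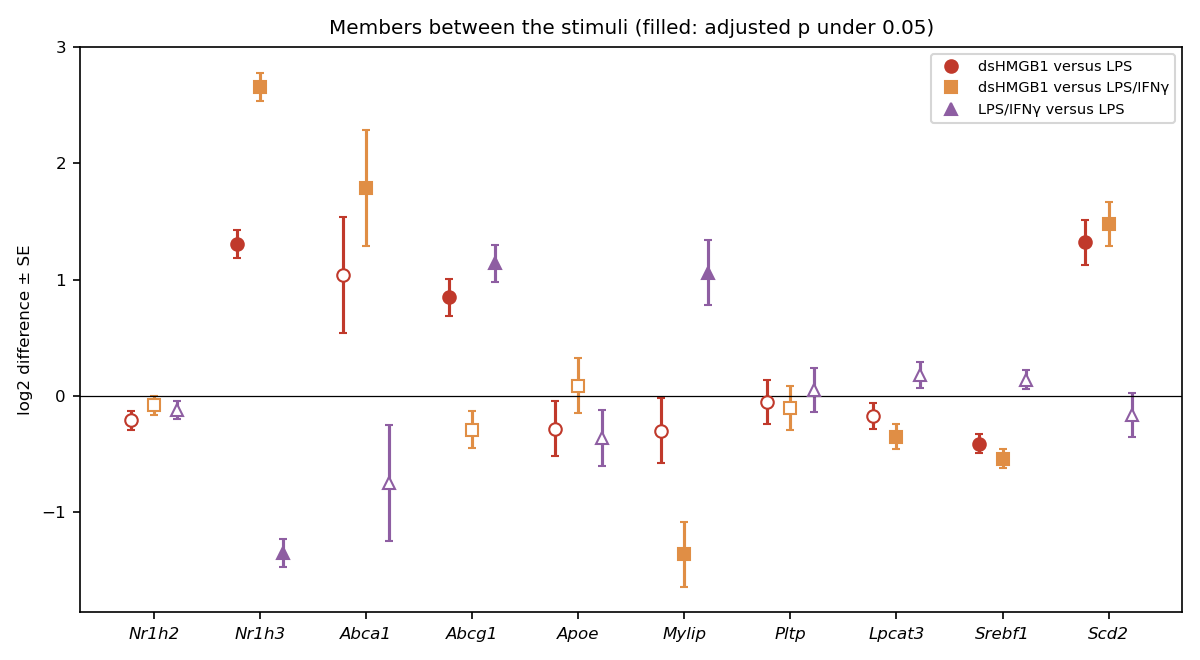
Log2 difference ± SE (vertical axis) of the 10 genes (horizontal axis) for dsHMGB1 versus LPS, dsHMGB1 versus LPS/IFNγ and LPS/IFNγ versus LPS, with filled symbols where the adjusted p was below 0.05. Nr1h3 lies at 1.31, 2.66 and -1.35, and Abcg1 at 0.85, -0.29 and 1.14.

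The direct comparisons of the stimuli do not use PBS levels, so PBS replicate 3 enters them only through the shared estimate of the spread, the gene filter and the scaling. The first set dsHMGB1 beside LPS, a bacterial ligand of Toll-like receptor 4. Nr1h3 was 1.31 ± 0.12 higher in dsHMGB1 (adjusted p = 6.01e-06), Abcg1 0.85 ± 0.16 (adjusted p = 0.00159) and Scd2 1.32 ± 0.19 (adjusted p = 0.000193), while Srebf1 was lower (-0.41 ± 0.08, adjusted p = 0.00211). Those 3 higher and 1 lower stand beside 15.8% and 10.6% of all genes. Abca1 was 1.04 ± 0.50 higher without being called (adjusted p = 0.157), although the libraries did not overlap. It was called where these conditions were fitted alone (1.04, adjusted p = 0.0012) and with the length correction (0.97, adjusted p = 0.0166), but not by DESeq2 or with RLE scaling. With PBS replicate 3 left out of the fit, the difference of Abca1 was 1.01 ± 0.16 and called (adjusted p = 4.76e-05), and 4 members were higher and 5 lower, beside 25.6% and 23.3% of all genes. Nr1h2 lay close to the threshold at -0.21 ± 0.08 (adjusted p = 0.0627), and was called without dsHMGB1 replicate 1 (-0.28, adjusted p = 0.0351) or PBS replicate 3 (-0.23, adjusted p = 0.00151). DESeq2 (-0.26, adjusted p = 0.00181), RLE scaling (-0.26, adjusted p = 0.0255) and the length correction (-0.21, adjusted p = 0.0225) called it too. So did a filter of at least 1 CPM in 3 libraries (adjusted p = 0.0463) and the pair fitted alone (adjusted p = 0.0425). It was not called without a count filter, with protein-coding genes only or with the replicate block.

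Against LPS/IFNγ, the classical pro-inflammatory stimulus, dsHMGB1 left Nr1h3 2.66 ± 0.12 higher (adjusted p = 5.05e-09), Abca1 1.79 ± 0.50 (adjusted p = 0.0157) and Scd2 1.48 ± 0.19 (adjusted p = 4.31e-05). Mylip (-1.36 ± 0.28, adjusted p = 0.00233), Srebf1 (-0.54 ± 0.08, adjusted p = 0.000145) and Lpcat3 (-0.35 ± 0.11, adjusted p = 0.0214) were lower. The 3 higher and 3 lower stand beside 16.5% and 16.7% of all genes, and without PBS replicate 3 there were 3 and 4, beside 27.9% and 25.4%. The call of Abca1 was lost without dsHMGB1 replicate 2 (1.55, adjusted p = 0.0589) or LPS/IFNγ replicate 1 (1.76, adjusted p = 0.0548). That of Lpcat3 was lost without dsHMGB1 replicate 1 (adjusted p = 0.102) or 3 (adjusted p = 0.0731) and without LPS/IFNγ replicate 1, 2 or 3 (adjusted p = 0.0559, 0.0825 and 0.0814).

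LPS/IFNγ against LPS shows the addition of interferon gamma together with a lower LPS dose by the study's methods (100 ng/mL beside 1 µg/mL). The parts of interferon gamma and of the dose cannot be told apart. Nr1h3 fell by 1.35 ± 0.12 (adjusted p = 3.76e-06), while Abcg1 rose by 1.14 ± 0.16 (adjusted p = 0.000159) and Mylip by 1.06 ± 0.28 (adjusted p = 0.014). Nr1h3 and Abcg1 thus moved in opposite directions, while the difference of the other transporter gene, Abca1, had the sign of Nr1h3 (given below). Scd2 and Srebf1, both called in LPS against PBS, were not called here (-0.16 ± 0.19 and 0.14 ± 0.08). The 2 higher and 1 lower stand beside 16.3% and 9.36% of all genes, and without PBS replicate 3 there were 2 and 4, beside 25.1% and 24.3%. The call of Mylip was lost without LPS replicate 1, 2 or 3 (1.02, 1.02 and 0.99, adjusted p = 0.055, 0.0547 and 0.0632). Abca1 was at -0.75 ± 0.50 (adjusted p = 0.321), and at -0.80 ± 0.16 and called without PBS replicate 3 (adjusted p = 0.000506). It was also called where these conditions were fitted alone (-0.78, adjusted p = 9.07e-10) and with the length correction (-1.01, adjusted p = 0.0138), but not by DESeq2 or with RLE scaling.

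Between the HMGB1 isoforms at the same dose, dsHMGB1 was above frHMGB1 for Nr1h2 (0.44 ± 0.08, adjusted p = 0.000315), Nr1h3 (0.90 ± 0.12, adjusted p = 3.89e-05) and Abca1 (1.34 ± 0.50, adjusted p = 0.0418), and below it for Mylip (-1.18 ± 0.28, adjusted p = 0.00364) and Scd2 (-1.91 ± 0.18, adjusted p = 2.06e-06). These 3 higher and 2 lower stand beside 27.7% and 23.1% of all genes, and without PBS replicate 3 there were 3 and 5, beside 35.8% and 32.9%. The call of Abca1 was lost without frHMGB1 replicate 1, 2 or 3 (adjusted p = 0.0898, 0.108 and 0.0912) and without dsHMGB1 replicate 2 or 3 (1.10 and 1.31, adjusted p = 0.134 and 0.085), and its adjusted p without PBS replicate 3 was 1.01e-06. For the other 5 members the differences were between -0.28 and 0.06, and none was called.

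Ordered by mean level, dsHMGB1 came first for Nr1h3 and Abca1, LPS for Nr1h2, frHMGB1 for Scd2, PBS for Apoe, and LPS/IFNγ for Abcg1, Mylip, Pltp, Lpcat3 and Srebf1. Of the neighbours in these orders, the pairs called were dsHMGB1 and frHMGB1 for Nr1h2 and Nr1h3, LPS and LPS/IFNγ for Nr1h3, dsHMGB1 and LPS for Abcg1, Srebf1 and Scd2, and PBS and dsHMGB1 for Scd2. No pair of neighbours was called for Abca1, Apoe, Mylip, Pltp or Lpcat3. Pairs of LPS or LPS/IFNγ with frHMGB1, fitted for these orders, had 53.6% and 64.2% of all genes called. Without PBS replicate 3 the whole order was kept for Nr1h2, Pltp, Srebf1 and Scd2, and PBS moved for the others, to the top for Abcg1 and from the top to next to last for Apoe.

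Between members, levels were compared as CPM per kilobase of merged exons, as means per condition. Apoe ran from 5021 to 7700, Pltp from 229 to 301, Abcg1 from 27.7 to 61.2, and Abca1 from 11.9 to 41.2. Mylip ran from 9.25 to 23.7, Srebf1 from 12.3 to 19.4, Lpcat3 from 9.27 to 12.01 and Scd2 from 1.28 to 13.4. The mean of Abcg1 was above that of Abca1 in all 5 conditions, although in dsHMGB1, at 49.91 ± 1.497 against 41.2 ± 13.4, the difference was within the spread of Abca1. By GENCODE M21 the exons of Pltp, Lpcat3 and Srebf1 overlap those of a coding gene on the other strand (Ctsa over 495 bases, Emg1 over 334 and Rai1 over 109), and the strand setting of the counting is not stated in the labels or methods. Scd2 has close paralogues, and how reads shared with them were counted is likewise not given.

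**Figure D5:**
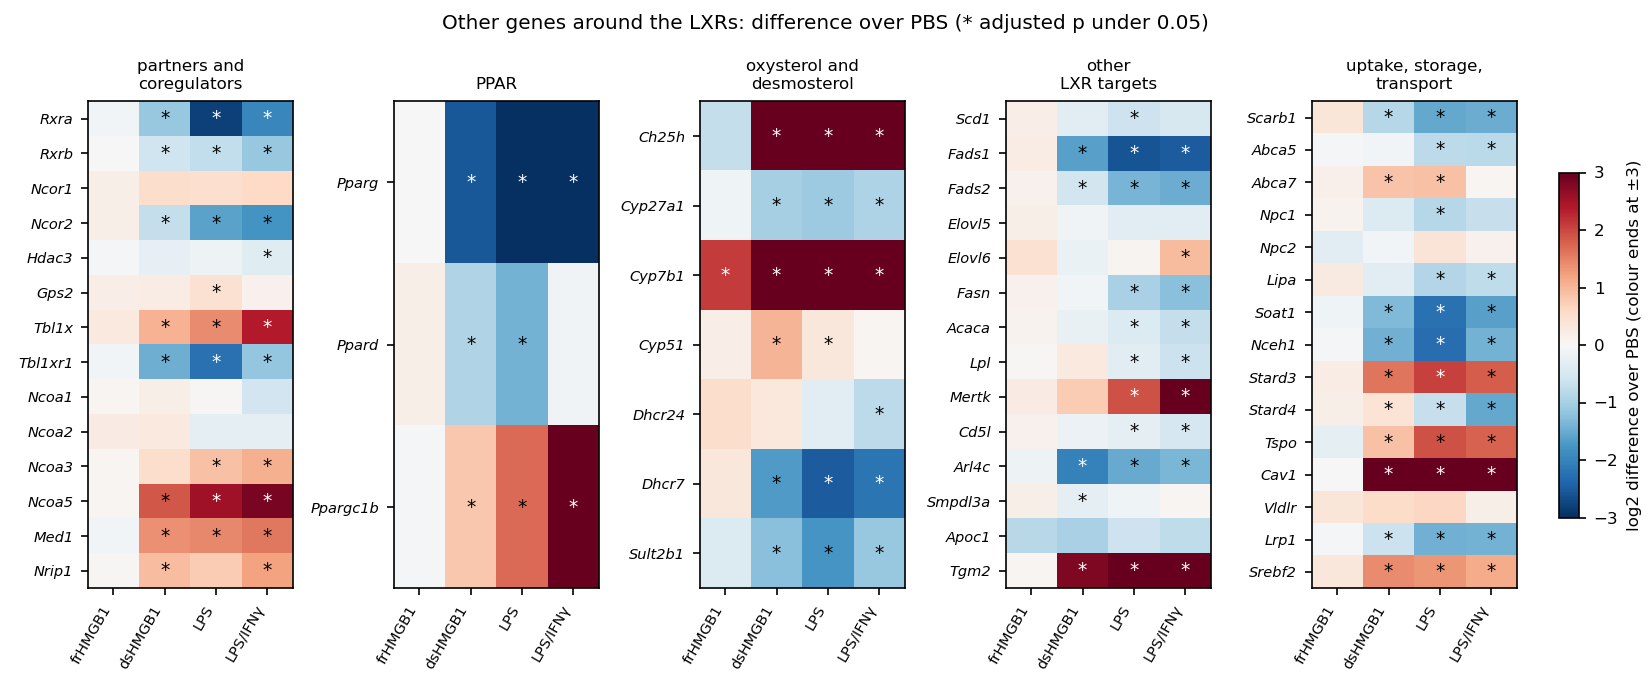
Log2 difference from PBS (colour scale, which ends at ±3) of the other pathway genes tested (rows, by list) with each stimulus (columns), with a star where the adjusted p was below 0.05. Ch25h, Cav1 and Tgm2 rose and Pparg and Rxra fell with dsHMGB1, LPS and LPS/IFNγ.

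The genes around the members were described by 5 lists. Their counts below stand beside the shares of all genes tested. With dsHMGB1 23.3% rose and 24.2% fell, with LPS 26.7% and 36.2%, with LPS/IFNγ 29% and 31.2%, and with frHMGB1 1.31% and 5.69%. Without PBS replicate 3 these shares were 29.8% and 29%, 32.9% and 38.3%, 33.3% and 34.4%, and 8.41% and 9.09%, in the same order. The list of LXR partners and coregulators held 15 genes, of which 14 were tested. With dsHMGB1 4 rose and 4 fell, with LPS 5 and 4, and with LPS/IFNγ 5 and 5, while with frHMGB1 none was called. The medians were 0.26, 0.24 and -0.06, and 0.06 with frHMGB1. With PBS replicate 3 left out 5 rose and 4 fell, 6 and 5, and 6 and 6, and with frHMGB1 1 and 1, with medians of 0.06, 0.12, 0 and -0.20. Differences of single genes below are from all libraries, and those named rose or fell without PBS replicate 3 too. Rxra, a heterodimer partner of LXR, had mean normalized counts of 5880 in PBS, 2693 in dsHMGB1 and 880 in LPS, with 1546 in LPS/IFNγ. It fell with dsHMGB1 (-1.14 ± 0.12, adjusted p = 2.89e-06), LPS (-2.81 ± 0.12, adjusted p = 3.12e-10) and LPS/IFNγ (-1.96 ± 0.12, adjusted p = 8.24e-09). In dsHMGB1 it was 1.67 ± 0.12 above LPS (adjusted p = 5.9e-07). Of the corepressor subunits Tbl1xr1 and Tbl1x, the first fell with dsHMGB1 (-1.47 ± 0.18), LPS (-2.23 ± 0.19) and LPS/IFNγ (-1.17 ± 0.18), and the second rose with all 3 (1.05, 1.41 and 2.37, each ± 0.31, adjusted p at most 0.0143). The coactivator gene Ncoa5 rose by 1.86, 2.54 and 2.84 in the 3 inflammatory stimuli, and Med1, a Mediator subunit, by 1.37, 1.44 and 1.59.

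Of 9 genes that supply or remove LXR ligands 7 were tested. With dsHMGB1 3 rose and 3 fell, with LPS 3 and 3, with LPS/IFNγ 2 and 4, and with frHMGB1 1 rose, with medians of 0.32, -0.31, -0.78 and 0.19. Leaving out PBS replicate 3 gave 3 and 2, 3 and 4, 3 and 3, and 2 higher with frHMGB1, with medians of -0.02, -0.62, -0.71 and 0.11. Ch25h, which makes 25-hydroxycholesterol, had a mean of 8.64 normalized counts in PBS, 652 in dsHMGB1 and 1511 in LPS, with 846 in LPS/IFNγ. It rose by 6.39 ± 0.48, 7.55 ± 0.48 and 6.75 ± 0.48 (adjusted p at most 9.03e-08). Cyp27a1, which makes 27-hydroxycholesterol, fell with dsHMGB1 (-0.99 ± 0.10, adjusted p = 2.15e-06), LPS (-1.08 ± 0.10, adjusted p = 5.75e-07) and LPS/IFNγ (-0.92 ± 0.10, adjusted p = 2.39e-06). Enzymes of late cholesterol synthesis moved apart with dsHMGB1, where Cyp51 rose by 1.02 ± 0.09 (adjusted p = 7.55e-07) and Dhcr7 fell by 1.70 ± 0.19 (adjusted p = 9.33e-06). In LPS Cyp51 rose by 0.33 ± 0.09 (adjusted p = 0.00717), and Dhcr7 fell with LPS (-2.49 ± 0.20) and LPS/IFNγ (-2.20 ± 0.19). The gene called with frHMGB1 was Cyp7b1, an oxysterol hydroxylase, named here after its values were seen (2.10 ± 0.57, adjusted p = 0.0299, on means of 9.90 against 2.10 normalized counts).

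Of 16 other LXR targets 14 were tested. With dsHMGB1 1 rose and 4 fell, with LPS 2 and 8, with LPS/IFNγ 3 and 7, and with frHMGB1 none was called. The medians were -0.21, -0.38 and -0.58, and 0.14 with frHMGB1. Of all genes tested 24.2%, 36.2% and 31.2% fell with dsHMGB1, LPS and LPS/IFNγ. When PBS replicate 3 was left out 3 of the list rose and 8 fell, 2 and 9, and 3 and 9, and with frHMGB1 2 rose, with medians of -0.34, -0.33, -0.51 and 0.01. Tgm2, a transglutaminase, rose by 2.81 ± 0.09 with dsHMGB1, 3.55 ± 0.09 with LPS and 4.57 ± 0.09 with LPS/IFNγ (adjusted p at most 5.11e-11). Mertk, a receptor for the uptake of dying cells, rose by 1.92 ± 0.34 with LPS (adjusted p = 0.000357) and by 2.98 ± 0.34 with LPS/IFNγ (adjusted p = 9.76e-06), or 1.55 ± 0.10 and 2.56 ± 0.10 without PBS replicate 3. With dsHMGB1 its difference was 0.76 ± 0.34 (adjusted p = 0.0841), and 0.37 ± 0.10 and called without that library (adjusted p = 0.00362). Fads1, a desaturase of polyunsaturated fatty acids, fell with the same 3 stimuli (-1.62 ± 0.18, -2.6 ± 0.18 and -2.49 ± 0.18, adjusted p at most 9.33e-06). Arl4c, a small GTPase, fell with dsHMGB1 (-2.03 ± 0.09), LPS (-1.52 ± 0.09) and LPS/IFNγ (-1.38 ± 0.09, adjusted p at most 1.79e-08).

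All 15 genes listed for cholesterol uptake, storage and transport outside the members were tested. With dsHMGB1 6 rose and 4 fell, with LPS 5 and 8, with LPS/IFNγ 4 and 7, and with frHMGB1 none was called, with medians of -0.09, -0.68, -0.69 and 0.10. With PBS replicate 3 left out these were 7 and 7, 6 and 8, and 5 and 8, and with frHMGB1 4 rose and 2 fell, with medians of 0.31, -0.75, -1.04 and 0.07, so that the median with dsHMGB1 changed sign. Stard3, a cholesterol transfer protein of late endosomes, rose by 1.60, 2.06 and 1.81 (each ± 0.08) with dsHMGB1, LPS and LPS/IFNγ (adjusted p at most 1.39e-09). Cav1, the main protein of caveolae, rose by 5.28 ± 0.28, 7.16 ± 0.28 and 4.83 ± 0.28 (adjusted p at most 2.02e-08), from 102 normalized counts in PBS to 4123, 15740 and 3059. Soat1, which esterifies cholesterol for storage, fell with dsHMGB1, LPS and LPS/IFNγ (-1.33, -2.25 and -1.62, each ± 0.10, adjusted p at most 1.14e-07), as did Nceh1, which hydrolyses the esters (-1.45, -2.28 and -1.41, each ± 0.12, adjusted p at most 2.9e-07).

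Of 4 genes of the PPAR axis, which is known to raise Nr1h3 in macrophages, 3 were tested. With dsHMGB1 and with LPS 1 rose and 2 fell, with LPS/IFNγ 1 rose and 1 fell, and with frHMGB1 none was called. The medians were -0.90, -1.42 and -0.10, and 0.02 with frHMGB1. The medians without PBS replicate 3 were -1.09, -1.58, -0.31 and -0.01, and with LPS/IFNγ 2 genes fell. Mean normalized counts of Pparg were 384 in LPS/IFNγ, 386 in LPS and 808 in dsHMGB1, beside 4668 in frHMGB1 and 4695 in the control. It fell by 2.54 ± 0.11 with dsHMGB1 (adjusted p = 8.66e-10), the condition in which Nr1h3 rose, and it fell with LPS (-3.66 ± 0.11) and LPS/IFNγ (-3.63 ± 0.11, adjusted p at most 2.58e-11). The part of the PPAR axis in the levels of Nr1h3 was not tested. The gene that rose in all 3 inflammatory stimuli was Ppargc1b, a coactivator and not a receptor, by 0.82 ± 0.18, 1.70 ± 0.18 and 3.49 ± 0.17 (adjusted p at most 0.00185).

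The genes whose 4 differences from PBS were most like those of a member were sought among 10092 protein-coding genes, by the root mean square difference of DESeq2 log2 ratios, which rest on the same 15 libraries, PBS replicate 3 included. For Nr1h3 they were St18 (0.187), March1 (0.219), Pot1b (0.239), Slco4a1 (0.245) and Slc25a33 (0.309), with transcripts of 1887 to 5892 bases. St18 stood at 0.14, 1.24, -0.05 and -1.09 with frHMGB1, dsHMGB1, LPS and LPS/IFNγ, beside 0.29, 1.22, -0.04 and -1.43 for Nr1h3. For Abca1 they were Sema6d (0.063), Cysltr1 (0.199), Cdc42bpg (0.207), Ulbp1 (0.214) and Kif3c (0.24). All of these had transcripts of 5142 to 6791 bases, in the class of 4 to 8 kb, whose median log2 ratio was -0.84 in PBS replicate 3. For Abcg1 they were Stxbp5 (0.115), Mbd5 (0.133), Dapp1 (0.147), Zfp729a (0.158) and Rara (0.158). Stxbp5, Mbd5 and Zfp729a had transcripts of 8543 to 9455 bases, in the class over 8 kb, whose median was -1.29 in that library. Dapp1 and Rara had 3083 and 3384 bases. No member was among the genes listed, since members were left out of the search.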

How the data were processed

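RNA was sequenced from bone marrow-derived macrophages of 5 pooled mice, in 3 libraries for each of 5 conditions (15 samples). The labels and the methods differ on the length of culture before stimulation. Per the labels and the study's methods, stranded mRNA libraries were sequenced paired-end, demultiplexed with CASAVA and aligned with STAR to GRCm38, and the authors used DESeq2. For the counting program and its annotation: not given in the sources used here. The authors deposited raw counts per gene, as whole numbers that are not normalized, for 51763 Ensembl genes, of which 51661 matched GENCODE M21.

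Samples were grouped by their labels. Genes were kept by filterByExpr (minimum count 10, minimum total 15), which left 16919. All 15 libraries entered 1 edgeR 4.0.16 quasi-likelihood fit without covariates (R 4.3.3, TMM scaling, Benjamini-Hochberg adjustment over all genes tested, threshold 0.05, total degrees of freedom 13.1). Levels are counts divided by DESeq2 1.42.0 size factors. Every p-value covers the spread between libraries of 1 pool of cells. Alternatives were another scaling (RLE), other filters, protein-coding genes only, pairs of conditions fitted alone, a replicate block, DESeq2's Wald test, each library left out, and, added after the data were seen, a transcript length offset per library (loess of log2 CPM, span 0.5), with and without PBS replicate 3, and the fit without PBS replicate 3 in comparisons that do not use PBS. The scripts were tested on simulated data. The members and the gene lists were chosen with earlier results of these data known. From the list of cholesterol uptake, storage and transport, 1 gene is not reported here, and the counts and medians of that list leave it out. From each list, the 3 or fewer called genes with the largest differences and a mean of at least 100 normalized counts were eligible to be named. Other genes are named only where their values were seen first, as said there.

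Same-numbered libraries of different conditions did not deviate together: 1 of 30 correlations was above 0.1.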

Additional observations from a re-analysis of the deposited data

How the results depend on the processing

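Leaving out PBS replicate 3 turned the sign of Apoe with frHMGB1 (0.26) and LPS (0.28) and of Abcg1 with LPS/IFNγ (-0.22), all 3 called then. With single libraries left out these 3 ran from -0.46 to 0.26, from -0.46 to 0.28 and from -0.22 to 0.15. The transcript length offset, added after the data were seen, also turned Abcg1 with LPS/IFNγ (-0.26), and with that library left out as well it turned Mylip with frHMGB1 (-0.15), Nr1h3 with LPS (0.18), Apoe with LPS (0.27), Abcg1 (-0.22) and Apoe (0.07) with LPS/IFNγ. The cause was not tested. Of 1240 values under alternatives, 39 more changed sign with neither value called.

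With single libraries left out, the number of members called ran from 0 to 4 for frHMGB1 against PBS, 5 to 6 for dsHMGB1, 4 to 6 for LPS and 5 to 7 for LPS/IFNγ, and from 4 to 9 for dsHMGB1 against LPS, 4 to 7 against LPS/IFNγ, 2 to 6 for LPS/IFNγ against LPS and 4 to 8 for dsHMGB1 against frHMGB1. Conditions fitted in pairs gave 3 for dsHMGB1 against PBS, 8 against LPS, 8 against frHMGB1 and 7 for LPS/IFNγ against LPS. The length offset gave 1 for frHMGB1 against PBS and 5 for LPS/IFNγ against LPS, and without PBS replicate 3 as well 4, 8, 10 for LPS against PBS and 9 for dsHMGB1 against LPS. The shares of all genes called moved too. Without PBS replicate 3, those for dsHMGB1 against LPS went from 15.8% to 25.6% higher and from 10.6% to 23.3% lower. For the other settings here, and the replicate block below, these shares are not given, so no change in count is read as particular to the members.

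With the replicate block the counts were 0, 5, 4 and 5 against PBS (frHMGB1, dsHMGB1, LPS, LPS/IFNγ) and 4, 6, 3 and 4 in the other comparisons. It ended the calls of Apoe with LPS/IFNγ (-0.57, adjusted p = 0.0516) and of Abca1 in dsHMGB1 against frHMGB1 (1.30, adjusted p = 0.0589) and no other. The libraries share only a number.

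Without PBS replicate 3 these counts of calls in the lists grew by over 1.5 times: coregulators 2 with frHMGB1, 8 in dsHMGB1 against LPS and 11 against frHMGB1, ligand genes 2 with frHMGB1 and 4 in LPS/IFNγ against LPS, other targets 2 with frHMGB1, 11 with dsHMGB1, 8 in LPS/IFNγ against LPS and 12 in dsHMGB1 against frHMGB1, and uptake and storage genes 6 with frHMGB1 and 13 in dsHMGB1 against LPS/IFNγ. The shares of all genes called grew in these comparisons too, with frHMGB1 against PBS from 1.31% to 8.41% higher and from 5.69% to 9.09% lower. The order of levels was kept for 7 of 10 members under TMM scaling and for 4 without PBS replicate 3. With protein-coding genes only, 70 genes in all were called with frHMGB1 against PBS, where all gene types gave 222 higher and 963 lower. RLE scaling moved the median of all genes by at most 0.064.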
